A study of Homo sapiens with 12 samples.

Results

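The genes described here encode the constitutive proteasome and the factors that assemble it. They are all genes of the array's gene table whose symbol is PSM, a letter from A to G and a number, leaving out the interferon-inducible catalytic subunits PSMB8, PSMB9 and PSMB10. There are 41 of them among 18132 genes with a probe set of 1 symbol: 15 of the 20S core (PSMA and PSMB), 17 of the 19S regulatory particle (PSMC and PSMD), 4 activators (PSME), 4 assembly factors (PSMG) and PSMF1. Each gene is represented by its probe set with exactly 1 symbol and the highest mean over all 12 arrays. The symbol PSMA6 has only a probe set that also carries another symbol, so it is not among the 41. The 19S genes PSMC5, PSMD7 and PSMD13 are not among them either.

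The proteasome is the main protease of the cytosol and nucleus and degrades proteins tagged with ubiquitin chains. Its barrel-shaped core is built of alpha rings, which gate the entrance, and beta rings, which hold the proteolytic sites. The 19S particle binds the ubiquitin chain, removes it and unfolds the substrate with a ring of ATPases, while PSME activators open the core without needing ubiquitin. When proteasome activity is short, cells raise the transcripts of many of these subunits together through the transcription factor NFE2L1. Heat damages proteins and so adds substrates, and macrophages also use the proteasome to cut peptides for antigen presentation.

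The cells were THP-1, a line from a human monocytic leukaemia that phorbol ester (PMA) turns into macrophage-like cells, and their messenger RNA was measured on Affymetrix PrimeView arrays in 4 groups of 3. In the temperature experiment, cells given 100 ng/ml PMA for 48 hours were then kept at the fever-like 40 °C or at 37 °C. The labels do not tie a harvest time to these arrays, so how long they were kept so is not known. In the inhibitor experiment, cells whose titles say siRNA and whose treatment label says siThermomir are called inhibitor here, and cells titled WT and labelled control are their controls. By the treatment protocol, cells were made macrophage-like at 40 °C, also with 100 ng/ml PMA for 48 hours. They received by nucleofection a hairpin inhibitor together with the GFP plasmid pmaxGFP, and were sorted on GFP 24 hours afterwards. The protocol names inhibitors of ThermoMIR-1, miR-142 and miR-143 and a control inhibitor against no human microRNA. The labels do not state which of the inhibitors the arrays stand for, or whether the controls went through the same handling with the control inhibitor. Nor do they tie replicates to separate cultures, and p-values therefore reflect the spread among these arrays alone, possibly a technical one.

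All values are log2 expression as deposited, and a difference is the mean of 1 group minus the mean of the other on that scale. A gene is called when its Benjamini-Hochberg adjusted p, over the 13909 genes whose mean reached log2 4.48, is under 0.05 (limma, two-sided). Of the 41 genes, 39 were tested. PSMA8, which encodes an alpha subunit of the testis, and PSMB11, which encodes the catalytic subunit of the thymus, averaged 2.92 and 3.66 and fell below that level. Array medians ran from 5.72 to 5.87, and the correlation across probe sets within a group was 0.9939 to 0.9984. All 8 macrophage markers looked for passed the filter (CD14, CD68, CSF1R, ITGAM, LYZ, SPI1, TYROBP and CD163). Of the measured markers of other cells, 3 of 5 lymphocyte genes (CD3E, CD79A and NKG7), 5 of 7 fibroblast and epithelial genes (COL1A1, COL1A2, PDGFRB, KRT8 and KRT18) and 1 of 2 erythroid genes (EPOR) also passed it, with means of 4.64 for EPOR to 6.81 for NKG7. The T-cell marker CD3D, the B-cell marker MS4A1, the epithelial marker EPCAM, DCN and HBZ were below it. In bulk RNA, fewer cells of a type and less RNA per cell cannot be told apart. A probe set's level also depends on its own probes, so no gene's level is set against another's.

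RefSeq promoter windows (GRCh38.p14, 250 bases before and 50 after an annotated start) were found for 35 members, as 41 windows. PSMA7, PSMB1, PSMB6, PSMB7, PSMD4 and PSMG3 had no entry. The letters TGACNNNGC, the core of the antioxidant response element that NFE2L1 and its relatives bind, were searched on both strands and occurred in 13 of the 41 windows (31.7%), against 13.3% of 35116 windows of all genes. Windows of members with this match that were called in either comparison are shown first, because these letters are those of the element known to drive this gene family. Each line gives 10 bases on either side where the window reaches so far, read on the strand of the match, with the match in capitals.
PSMD1, match at chr2:231056906-231056914, 40 bases after the start: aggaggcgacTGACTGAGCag
PSMD3, match at chr17:39980770-39980778, 37 bases before the start: tcccctttgtTGACTCGGCcatcggcctg
PSMD12, match at chr17:67366734-67366742, 165 bases before the start: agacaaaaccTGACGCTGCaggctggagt
PSMC4, match at chr19:39971192-39971200, 28 bases after the start, opposite strand to the gene: tcctccatagTGACCAAGCcggcctctgt
PSMA4, match at chr15:78540660-78540668, 126 bases before the start: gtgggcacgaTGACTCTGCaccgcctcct
PSMG1, match at chr21:39183626-39183634, 183 bases before the start: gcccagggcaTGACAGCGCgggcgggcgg
PSMG2, match at chr18:12658699-12658707, 39 bases before the start: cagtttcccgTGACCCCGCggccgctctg

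PSMD3 holds another match, on the opposite strand 34 bases after its start. PSMB3, PSMD5, PSMD9, PSME1 and PSME2 also have the match and were called in neither comparison. For 3 genes on which the results below turn, the 250 bases before the start are given whole. The window of PSME4 has the match on the opposite strand, 34 bases before the start, in capitals. Those of PSMC3 and PSMB5 have no such match but a CCAAT box each, also in capitals. The 250 bases before another RefSeq start of PSMB5, not shown, hold neither.
PSME4, chr2:53970994-53971243, minus strand: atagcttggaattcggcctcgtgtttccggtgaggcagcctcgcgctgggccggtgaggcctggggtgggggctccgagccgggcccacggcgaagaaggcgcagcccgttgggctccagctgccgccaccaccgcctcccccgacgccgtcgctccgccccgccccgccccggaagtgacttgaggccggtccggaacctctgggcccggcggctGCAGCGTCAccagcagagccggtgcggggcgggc
PSMC3, chr11:47426440-47426689, minus strand: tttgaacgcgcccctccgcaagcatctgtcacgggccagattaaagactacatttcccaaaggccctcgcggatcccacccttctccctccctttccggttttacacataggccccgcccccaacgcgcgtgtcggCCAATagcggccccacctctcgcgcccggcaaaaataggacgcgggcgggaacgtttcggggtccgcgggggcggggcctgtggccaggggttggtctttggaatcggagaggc
PSMB5, chr14:23035221-23035470, minus strand: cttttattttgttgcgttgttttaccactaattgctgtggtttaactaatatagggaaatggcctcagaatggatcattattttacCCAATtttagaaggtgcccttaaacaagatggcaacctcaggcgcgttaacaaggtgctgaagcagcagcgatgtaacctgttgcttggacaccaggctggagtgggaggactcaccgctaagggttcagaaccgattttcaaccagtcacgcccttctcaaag

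Among 11 motifs searched in the same way, CCAAT was in 17 member windows (41.5%, against 34.6% of all windows) and the ETS-type CCGGAAG in 12 (29.3%, against 10.3%). The stricter response element TGACNNAGC, which overlaps TGACNNNGC, was in 5 (12.2%, against 3.83%). The GC box GGGCGG was in 26 (63.4%, against 45.0%). The heat shock unit pair TTCNNGAA was in 3 (7.32%, against 7.74%), namely those of PSMB5, PSMD5 and PSMD6, and 2 longer or turned forms of the heat shock element were in 0 (6.71% and 0.49% of all windows). CACGTG was in 3 (7.32%, against 7.26%), and TGACGT, the shorter form of the cAMP response element, in 3 (7.32%, against 7.98%), while its full palindrome was in 0 (1.85% of all windows). A match is a run of letters and not a shown binding site.

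At 40 °C, proteasome transcripts moved by small steps and in both directions. Of the 39 tested, 5 were higher and 12 lower than at 37 °C, with differences from −0.46 for PSME4 to 0.51 for PSME3 and a median of −0.07, against 0.01 over all genes tested. The higher members were the core genes PSMB5 and PSMB2, the 19S genes PSMC4 and PSMD10, and the activator PSME3. The lower members were PSMA3, PSMB1 and PSMB7 of the core, PSMC1, PSMC3, PSMD1, PSMD6, PSMD12 and PSMD14 of the 19S particle, PSME4, and the assembly factors PSMG1 and PSMG2. Called members were 43.6% of those tested, against 39.3% of all genes. By direction, 12.8% of members were higher, against 21.6% of all genes, and 30.8% were lower, against 17.7% of all genes. The groups did not overlap for 24 members, and for 49.5% of all genes.

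The catalytic beta subunits went separate ways at 40 °C. PSMB5, which encodes the chymotrypsin-like subunit and the target of the drug bortezomib, had 11.06, 11.00 and 10.95 at 40 °C, against 10.63, 10.66 and 10.61 at 37 °C. The lowest array at 40 °C was above the highest at 37 °C, and the transcript rose by 0.37 (SE 0.05, 1.29-fold, adjusted p = 0.000557). PSMB7, which encodes the trypsin-like subunit, had 10.67, 10.69 and 10.64 at 40 °C, against 10.84 on each array at 37 °C. It fell by 0.17 (SE 0.04, 1.13-fold lower, adjusted p = 0.0116), again without overlap. PSMB6, which encodes the caspase-like subunit, had 11.55, 11.49 and 11.49 at 40 °C, against 11.44, 11.52 and 11.44 at 37 °C, and these overlapped. Its difference of 0.04 (95% interval −0.06 to 0.15) was not called. All 5 probe sets of PSMB5 were higher at 40 °C, by 0.26 to 0.37. Of the 5 probe sets of PSMB7, the 3 brighter ones differed by −0.15 to −0.20 and the 2 faint ones differed by −0.04 and 0.04, and averaging its probe sets ended the call (−0.10, adjusted p = 0.135).

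Among the other core genes at 40 °C, the structural beta subunit PSMB2 rose by 0.15 (adjusted p = 0.0201), from a probe set with 10.86, 10.86 and 10.87 at 40 °C, against 10.69, 10.70 and 10.74 at 37 °C. A faint probe set of the same gene was lower, at −0.95, so the direction is that of the brightest probe set, and averaging the probe sets gave −0.24 (adjusted p = 0.0514). PSMB1, another beta subunit without a catalytic role, fell by 0.16 (adjusted p = 0.0284). The alpha subunit gene PSMA3 had 10.83, 10.79 and 10.87 at 40 °C, against 11.05, 11.09 and 11.03 at 37 °C, a fall of 0.23 (SE 0.05, adjusted p = 0.00496) without overlap. The other 5 tested alpha genes were not called, with differences of −0.05 for PSMA1, −0.07 for PSMA2, −0.11 for PSMA4, −0.10 for PSMA5 and 0.06 for PSMA7. A faint probe set of PSMA1 was called lower (−0.50, adjusted p = 0.00895 over all probe sets), and averaging made PSMA1 a call (−0.28, adjusted p = 0.0148). PSMA4 was called in 4 of the alternative fits, at −0.11 to −0.13, and PSMA5 in 1. The beta genes PSMB3 and PSMB4 differed by 0.06 and 0.07 and were not called.

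Within the 19S particle, 2 genes rose and 6 fell of 17 at 40 °C, and the median was −0.07. PSMD1, which encodes the large scaffold subunit of the 19S base, had 10.03, 10.00 and 9.88 at 40 °C, against 10.28, 10.33 and 10.36 at 37 °C. It fell by 0.35 (SE 0.05, 1.28-fold lower, adjusted p = 0.00139), and its other probe set gave −0.26. PSMC3, an ATPase of the base, had 10.38, 10.32 and 10.33 at 40 °C, against 10.58, 10.63 and 10.55 at 37 °C, and fell by 0.24 (SE 0.05, adjusted p = 0.0036). Neither gene's groups overlapped. PSMC4, another ATPase of the base, moved the other way: it had 8.46, 8.42 and 8.40 at 40 °C, against 8.16, 8.31 and 8.16 at 37 °C, and rose by 0.22 (SE 0.06, 1.16-fold, adjusted p = 0.0152). The ATPase PSMC1 fell by 0.14 (adjusted p = 0.0437), while PSMC2 and PSMC6 differed by −0.06 and −0.01 and were not called. A fainter probe set of PSMC2 was lower, at −1.09, and averaging made PSMC2 a call (−0.40, adjusted p = 0.000176). That average also takes in a probe set below the signal filter.

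The lid of the 19S particle holds the deubiquitinase PSMD14 among scaffold subunits, and 3 of its 6 measured genes fell at 40 °C. PSMD6 had 10.17, 10.14 and 10.13 at 40 °C, against 10.45, 10.48 and 10.48 at 37 °C, a fall of 0.32 (SE 0.04, 1.25-fold lower, adjusted p = 0.000577), and both of its probe sets gave −0.32. PSMD12 fell by 0.23 (adjusted p = 0.00378) and PSMD14 by 0.19 (adjusted p = 0.0113). PSMD3, PSMD8 and PSMD11 differed by 0.06, −0.07 and −0.07 and were not called. The ubiquitin receptor PSMD4 differed by −0.02 and the docking subunit PSMD2 by 0.11, neither called. Both fainter probe sets of PSMD2 were called higher (0.29 and 0.18), averaging made the gene a call (0.19, adjusted p = 0.00551), and 3 further alternative fits called it. Of the chaperones that help build the 19S base, PSMD10 (gankyrin) rose by 0.19 (adjusted p = 0.00753), while PSMD5 and PSMD9 differed by −0.08 and −0.11 and were not called. A faint probe set of PSMD9 was lower, at −1.10, and averaging made PSMD9 a call (−0.605), as did quantile normalization.

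The activators held both ends of the range at 40 °C. PSME4, which encodes the large nuclear activator PA200, had 9.62, 9.48 and 9.47 at 40 °C, against 9.95, 10.00 and 10.00 at 37 °C. It fell by 0.46 (SE 0.05, 1.38-fold lower, adjusted p = 0.000378), and its 6 probe sets ran from −0.47 to −0.17. PSME3, which encodes the nuclear activator PA28 gamma, had 8.39, 8.32 and 8.28 at 40 °C, against 7.82, 7.94 and 7.70 at 37 °C. It rose by 0.51 (SE 0.07, 1.42-fold, adjusted p = 0.000669), but its fainter probe sets differed by −0.06 and 0.02, and averaging gave 0.16 (adjusted p = 0.0204). Neither gene's groups overlapped. PSME1 and PSME2, which form the interferon-inducible activator PA28, differed by −0.05 and −0.12 (adjusted p = 0.546 and 0.0553). PSME2 was called in 4 of the alternative fits. PSMF1, which encodes a proteasome-binding protein named for inhibiting the core in vitro, differed by 0.11 (adjusted p = 0.153). Averaging its probe sets made it a call (0.17, adjusted p = 0.00802).

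The assembly factors PSMG1 and PSMG2, which pair to start the alpha ring, both fell at 40 °C. PSMG2 had 10.62, 10.59 and 10.59 at 40 °C, against 10.93, 11.00 and 10.92 at 37 °C, a fall of 0.35 (SE 0.04, 1.27-fold lower, adjusted p = 0.000547) without overlap. PSMG1 had 9.41, 9.41 and 9.40 at 40 °C, against 9.61, 9.60 and 9.51 at 37 °C, a fall of 0.17 (SE 0.05, adjusted p = 0.0219). PSMG3 and PSMG4, the second pair of alpha-ring chaperones, differed by 0.02 and 0.11 and were not called. PSMG4 was called only when replicate 2 at 40 °C was left out. Each assembly gene but PSMG4, which has 6, rests on 1 probe set.

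**Figure D1:**
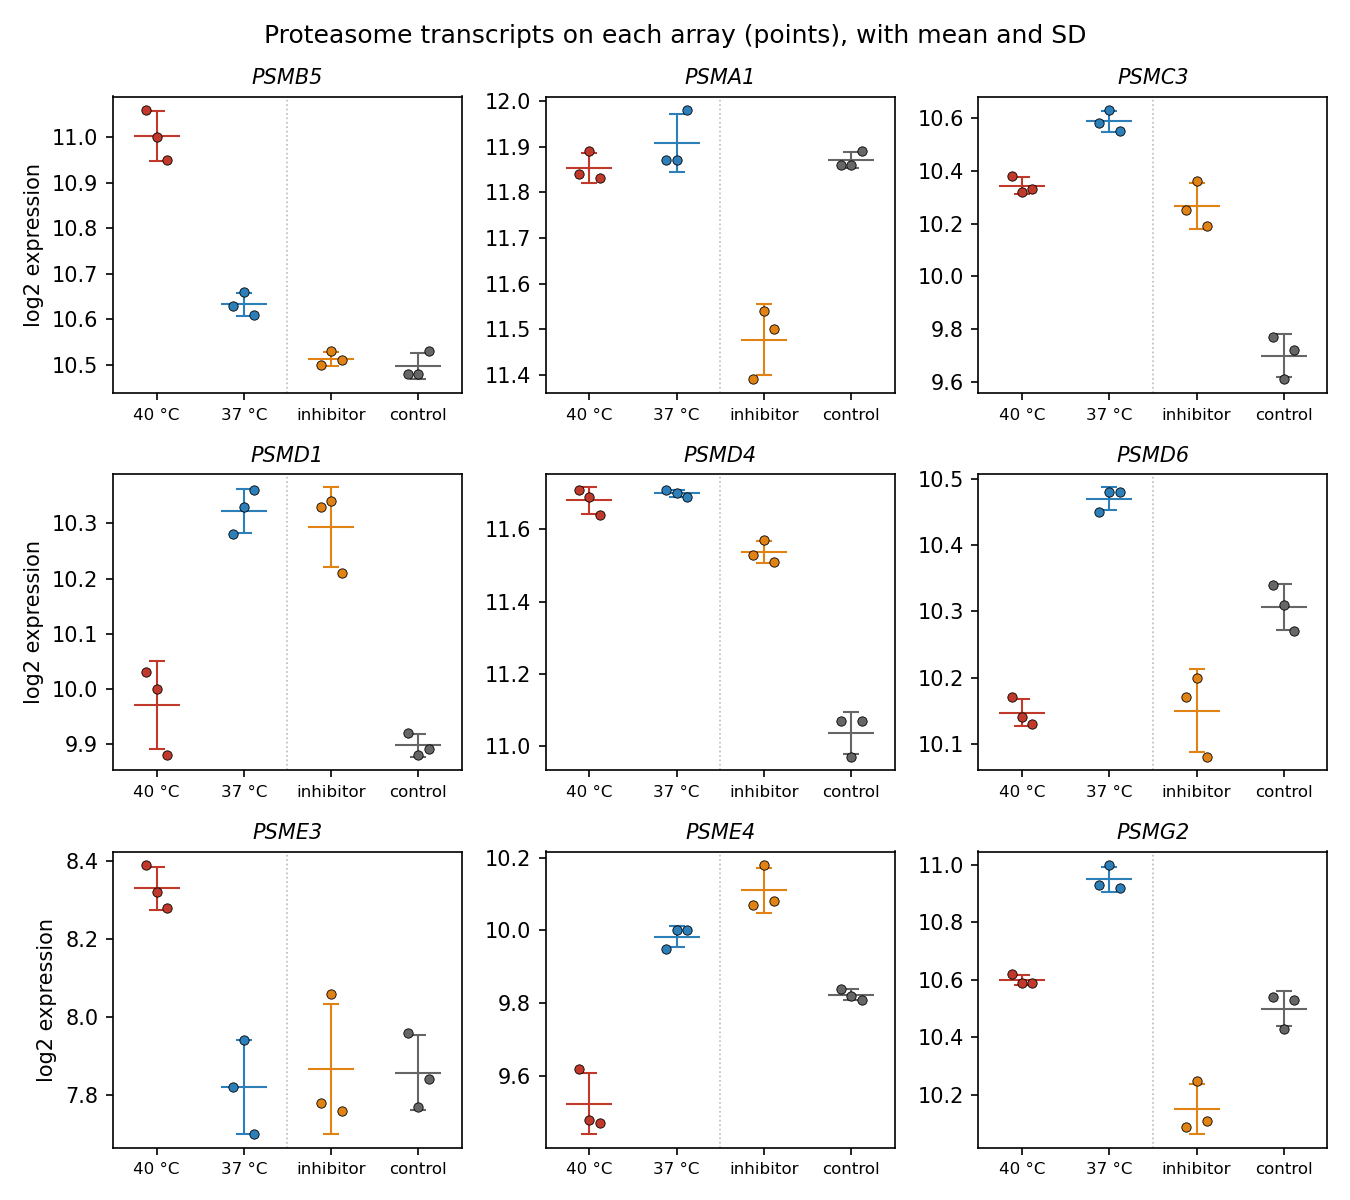
Log2 expression of 9 proteasome genes on each array (points, 3 per group), with the group mean and SD (bars), for 40 °C, 37 °C, inhibitor and control cells; each panel has its own scale, which does not start at 0. PSMB5 and PSME3 sit higher at 40 °C than at 37 °C and PSMD6, PSME4 and PSMG2 lower, whereas PSMC3, PSMD1 and PSMD4 sit higher with the inhibitor than in its controls and PSMA1 and PSMG2 lower.

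Leaving out 1 array ended 5 of the 17 calls at 40 °C. They were those of PSMB1 (without replicate 2 or 3 at 37 °C, or 1 or 3 at 40 °C; adjusted p = 0.0686 to 0.093), PSMB2 (1 or 2 at 37 °C, 2 or 3 at 40 °C; 0.0505 to 0.0747), PSMC1 (any at 37 °C, 2 or 3 at 40 °C; 0.0729 to 0.127), PSMC4 (1 or 3 at 37 °C; 0.0554 to 0.0591) and PSMG1 (1 or 2 at 37 °C, 2 or 3 at 40 °C; 0.055 to 0.0828). All kept their sign. With the level of the poly-A spikes (RNAs added before labelling) as a covariate, 2 members were higher and 6 lower at 40 °C. The calls of PSMA3, PSMD10 and PSMD14 were lost only there, at −0.22, 0.20 and −0.26 (adjusted p = 0.0946, 0.104 and 0.0554), against −0.23, 0.19 and −0.19 without the covariate. PSMB5, PSMC3, PSMD1, PSMD6, PSMD12, PSME3, PSME4 and PSMG2 stayed called in the same direction in each of 17 alternative fits. PSMC3 and PSMG2 have 1 probe set each, so averaging probe sets could not change their values. In the fit of every probe set, each member was again read from its brightest probe set, so its other probe sets could not end a call. Macrophage markers also moved between the temperatures, with 6 of 8 higher and 1 lower at 40 °C. Their summed linear signal was 18741 to 19967 at 40 °C and 16060 to 16493 at 37 °C, and its part in these differences was not tested.

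In cells given the thermomiR inhibitor, the proteasome genes again split, with 9 higher and 9 lower of 39 tested. Differences ran from −0.39 for PSMA1 to 0.57 for PSMC3, with a median of −0.01, against 0.09 over all genes. The higher members were PSMB2 of the core, PSMC3, PSMD1, PSMD2, PSMD3, PSMD4 and PSMD11 of the 19S particle, PSME4, and PSMF1. The lower members were the alpha genes PSMA1, PSMA2 and PSMA4, the 19S genes PSMC2, PSMC4, PSMC6, PSMD10 and PSMD14, and the assembly factor PSMG2. Called members were 46.2% of those tested, against 45.2% of all genes. By direction, 23.1% were higher, against 25.7% of all genes, and 23.1% lower, against 19.6% of all genes. The groups did not overlap for 23 members, and for 54.1% of all genes. With each array centred on its median, the split was 8 higher and 4 lower, and PSMA2, PSMC2, PSMC4, PSMC6, PSMD10 and PSMD11 were no longer called (adjusted p = 0.0581 to 0.0855). Averaging the probe sets of a gene ended the calls of PSMC2 (adjusted p = 0.331), PSMC6 (0.646), PSMD11 (0.0746) and PSMF1 (0.094). The averages take in probe sets below the signal filter, namely the only other one of PSMC6 (mean 2.47) and the faintest of PSMC2 (3.69).

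Quality measures differed between these 2 groups far more than between the temperatures. The poly-A spikes, added to each RNA before labelling, averaged 5.83 ± 0.27 with the inhibitor and 7.07 ± 0.35 in controls (SD, n = 3 each), against 7.77 ± 0.04 at 40 °C and 7.68 ± 0.04 at 37 °C. The 18S rRNA probe sets averaged 10.14 ± 0.41 with the inhibitor and 12.75 ± 0.14 in controls, and the 3′ minus 5′ difference of ACTB, a measure of RNA integrity, was 2.70 ± 0.16 with the inhibitor and 2.44 ± 0.09 in controls. The same difference of GAPDH ran the other way, at 0.72 ± 0.09 with the inhibitor and 1.04 ± 0.04 in controls, without overlap. At 40 °C and 37 °C the 18S probe sets averaged 10.79 and 11.07. The ACTB difference was 1.58 and 1.55 there, and that of GAPDH 0.44 and 0.38. The macrophage markers were 1 higher and 5 lower of 8 with the inhibitor, and their summed linear signal was 14776 to 15230 with the inhibitor and 19980 to 20472 in controls. The lymphocyte markers summed to 302 to 325 with the inhibitor and 205 to 222 in controls, of which NKG7 was called (0.98). The spike levels of the groups did not overlap (5.51 to 5.998 with the inhibitor, 6.81 to 7.47 in controls). With that level as a covariate in the fit, 0 members were called with the inhibitor in either direction by limma (4 higher and 1 lower at an unadjusted p under 0.05; PSMC3 at 0.51, adjusted p = 0.266), and 52 genes in all were higher and 184 lower. The part of the rRNA and marker levels in the differences below was not tested.

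The 3 largest rises with the inhibitor were in genes of the 19S base, PSMC3, PSMD2 and PSMD4. PSMC3, an ATPase of the base, had 10.25, 10.36 and 10.19 with the inhibitor, against 9.77, 9.61 and 9.72 in controls, and rose by 0.57 (SE 0.07, 1.48-fold, adjusted p = 0.000683). PSMD4, which encodes a ubiquitin receptor, had 11.53, 11.57 and 11.51 with the inhibitor, against 11.07, 10.97 and 11.07 in controls, and rose by 0.50 (SE 0.06, 1.41-fold, adjusted p = 0.000461). In both, every inhibitor array was above every control array, and both genes rest on 1 probe set each. PSMD1 had 10.33, 10.34 and 10.21 with the inhibitor, against 9.92, 9.88 and 9.89 in controls, a rise of 0.40 (SE 0.06, 1.32-fold, adjusted p = 0.00154), and its other probe set gave 0.32. PSMD2, which docks shuttle proteins and the deubiquitinase USP14, had 11.12, 11.19 and 11.15 with the inhibitor, against 10.67, 10.60 and 10.66 in controls. It rose by 0.51 (SE 0.06, 1.42-fold, adjusted p = 0.000344) by its brightest probe set, but the others gave −0.14 (not called) and −0.50 (called lower), and averaging all of them gave −0.043 (adjusted p = 0.732). Among the members, the 3 base genes that are no ATPases (PSMD1, PSMD2 and PSMD4) were thus all called higher by their brightest probe sets, a grouping made after their values were seen.

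Of the other measured base ATPases, 3 fell with the inhibitor. PSMC4 had 8.78, 8.88 and 8.71 with the inhibitor, against 9.07, 8.92 and 9.07 in controls, and fell by 0.23 (SE 0.07, adjusted p = 0.0362). PSMC2 fell by 0.20 (adjusted p = 0.0279) and PSMC6 by 0.22 (adjusted p = 0.0309), while PSMC1 differed by 0.0033 (95% interval −0.13 to 0.14). In the lid, PSMD3 rose by 0.41 (1.33-fold, adjusted p = 0.00134) and PSMD11, which ties the lid to the core, by 0.19 (adjusted p = 0.0447). PSMD14 had 10.77, 10.84 and 10.83 with the inhibitor, against 11.12, 11.05 and 11.15 in controls, and fell by 0.29 (SE 0.06, 1.23-fold lower, adjusted p = 0.00508) without overlap. PSMD6, PSMD8 and PSMD12 differed by −0.16, 0.03 and −0.16 and were not called. PSMD6 was called in 4 of the alternative fits and PSMD12 in 5. A faint probe set of PSMD8 was called higher (0.39, adjusted p = 0.00542 over all probe sets). The faintest of PSMD12 was called lower (−0.21, adjusted p = 0.0472). Of the base chaperones, PSMD10 fell by 0.17 (adjusted p = 0.0313), and PSMD5 and PSMD9 differed by −0.06 and −0.05. A faint probe set of PSMD9 was higher by 0.43, and averaging both probe sets made it a call (0.19, adjusted p = 0.0294).

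In the core, 3 of 6 tested alpha genes fell with the inhibitor and 1 of 7 beta genes rose. The median difference was −0.12 for alpha genes and 0.04 for beta genes, against 0.09 over all genes, and whether alpha and beta genes differ was not tested. All 6 alpha differences were below 0 and 6 of 7 beta differences above it, where 62.1% of all genes were above 0. These signs depend on the processing: after quantile normalization PSMA3, PSMA5 and PSMA7 were above 0, and with probe sets averaged 4 of 7 beta genes were. PSMA1 had 11.39, 11.54 and 11.50 with the inhibitor, against 11.86, 11.86 and 11.89 in controls, and fell by 0.39 (SE 0.06, 1.31-fold lower, adjusted p = 0.00172). PSMA4 had 11.47, 11.54 and 11.56 with the inhibitor, against 11.81, 11.75 and 11.74 in controls, and fell by 0.24 (SE 0.06, 1.18-fold lower, adjusted p = 0.011), with its other probe sets at −0.20 and −0.52. PSMA2 fell by 0.21 (adjusted p = 0.0222), and its other probe set gave −0.33. PSMA3, PSMA5 and PSMA7 differed by −0.01, −0.01 and −0.02 and were not called.

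The catalytic genes, PSMB5 among them, were not called with the inhibitor. PSMB5 had 10.50, 10.53 and 10.51 with the inhibitor, against 10.48, 10.48 and 10.53 in controls, a difference of 0.02 (95% interval −0.11 to 0.14). PSMB6 had 11.46, 11.52 and 11.49 with the inhibitor, against 11.56, 11.44 and 11.53 in controls, a difference of −0.02 (95% interval −0.16 to 0.12). PSMB7 had 10.45, 10.50 and 10.35 with the inhibitor, against 10.39, 10.29 and 10.25 in controls, a difference of 0.12 (95% interval −0.04 to 0.28). In all 3 the groups overlapped. PSMB2 had 10.59, 10.65 and 10.55 with the inhibitor, against 10.38, 10.26 and 10.36 in controls, and rose by 0.26 (SE 0.06, 1.20-fold, adjusted p = 0.0109), with its other probe sets at 0.33 and 0.85. PSMB1, PSMB3 and PSMB4 differed by 0.11, 0.03 and 0.04 and were not called. PSMB1 and PSMB7 were each called in 2 of the alternative fits.

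Outside the core and the 19S particle, PSME4 had 10.07, 10.18 and 10.08 with the inhibitor, against 9.84, 9.82 and 9.81 in controls. It rose by 0.29 (SE 0.06, 1.22-fold, adjusted p = 0.00552) without overlap. Of its other 5 probe sets, 4 lay between 0.17 and 0.45 and 1 at −1.24, and averaging them ended the call (0.023, adjusted p = 0.834). PSMF1 had 8.48, 8.49 and 8.39 with the inhibitor, against 8.30, 8.18 and 8.24 in controls, and rose by 0.21 (SE 0.06, 1.16-fold, adjusted p = 0.0261). PSME1, PSME2 and PSME3 differed by 0.17, −0.14 and 0.01 and were not called. PSME1 was called in 5 of the alternative fits and PSME2 in 3. A fainter probe set of PSME3 was called higher (0.30, adjusted p = 0.0151 over all probe sets), and its faintest gave −0.0067 (not called). Among the assembly factors PSMG2 had 10.09, 10.25 and 10.11 with the inhibitor, against 10.54, 10.43 and 10.53 in controls, and fell by 0.35 (SE 0.07, 1.27-fold lower, adjusted p = 0.00479). PSMG1, PSMG3 and PSMG4 differed by −0.12, 0.12 and −0.30 and were not called. PSMG4 was called in 7 of the 17 alternative fits and PSMG1 in 1. The other tested probe sets of PSMG4 lay between −0.10 and 0.13, and none was called.

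**Figure D2:**
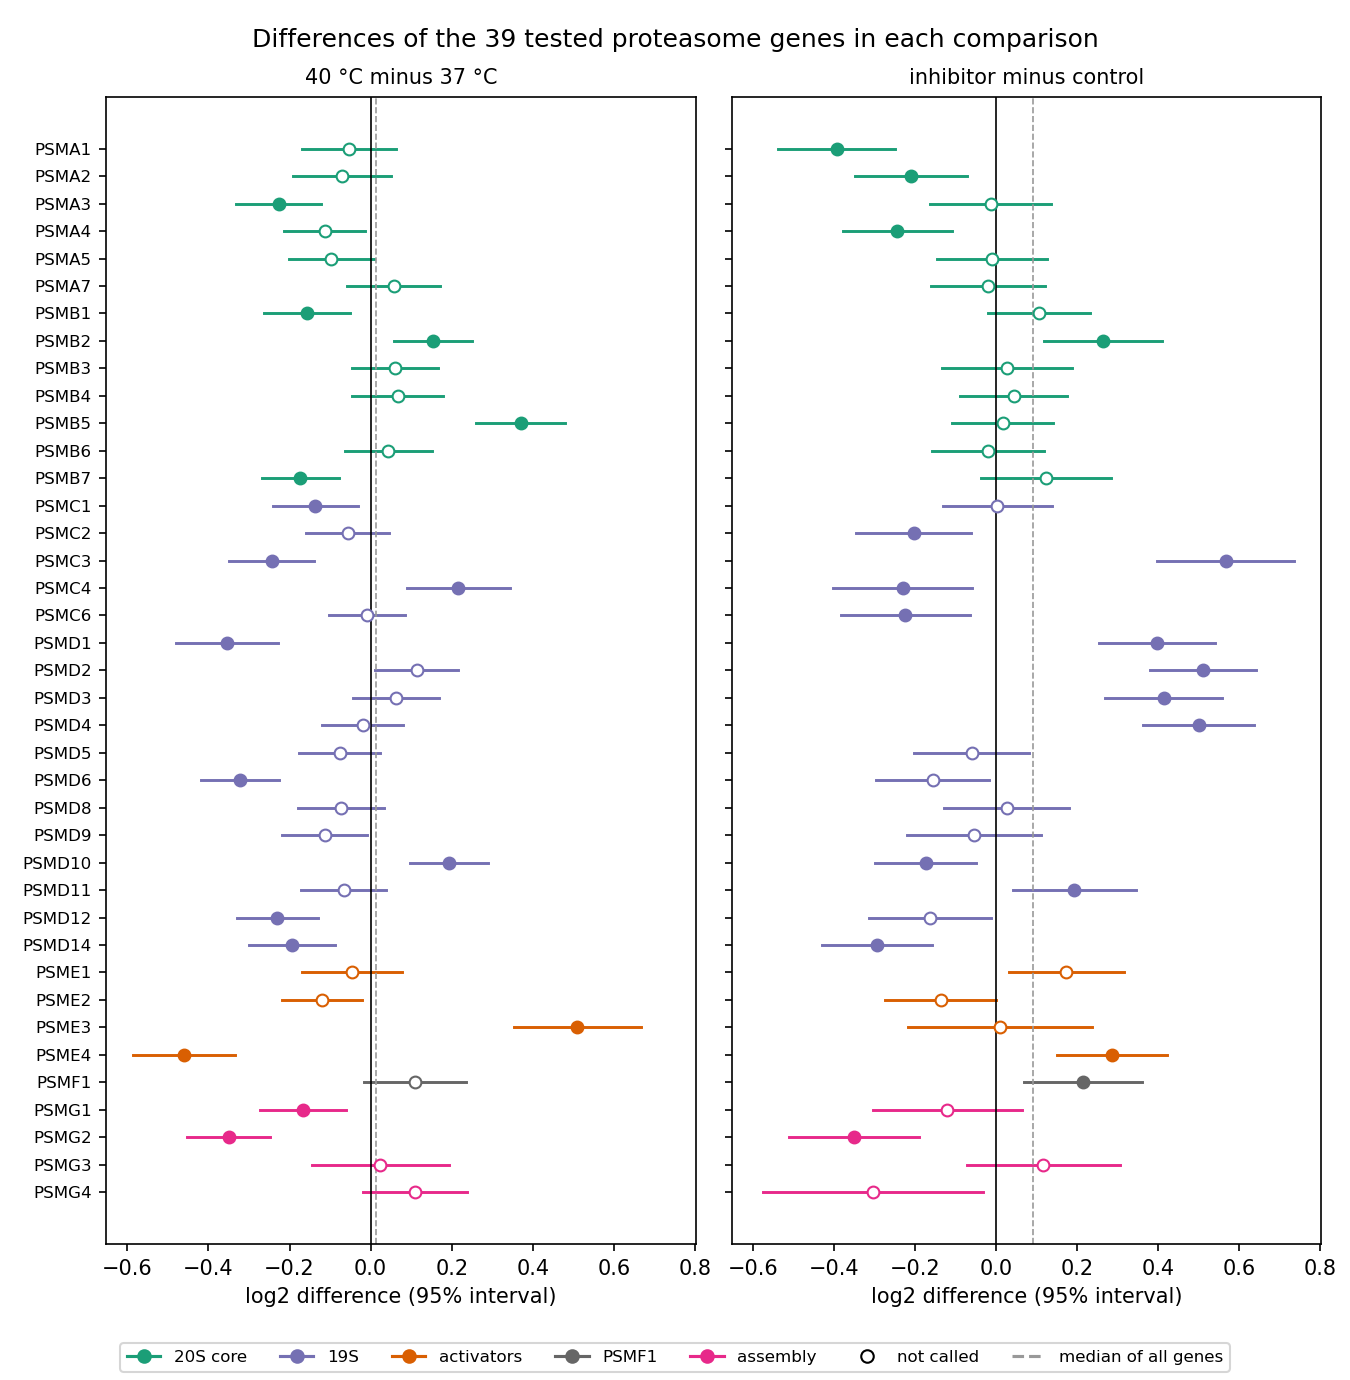
Log2 difference of each of the 39 tested proteasome genes at 40 °C minus 37 °C (left) and inhibitor minus control (right), with its 95% interval; filled points were called, and the dashed line is the median of all genes tested (0.01 and 0.09). PSME3 and PSMB5 lie farthest right and PSME4 farthest left at 40 °C, and PSMC3, PSMD2 and PSMD4 farthest right and PSMA1 farthest left with the inhibitor.

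Leaving out 1 array ended 7 of the 18 calls with the inhibitor, none with a change of sign. They were those of PSMA2 and PSMC2 (without any control, or inhibitor replicate 1 or 3; adjusted p = 0.0507 to 0.0817 and 0.0526 to 0.0886), PSMD10 (the same arrays; 0.0747 to 0.0987), and PSMC4 and PSMC6 (control or inhibitor replicate 1 or 3; 0.0983 to 0.123 and 0.0508 to 0.103). The calls of PSMD11 (any control, inhibitor replicate 1 or 2; 0.0738 to 0.125) and PSMF1 (control 2 or 3, inhibitor 1 or 2; 0.0519 to 0.0855) were lost as well. Inhibitor replicate 2 had the highest mean over the 39 members in its group, 10.37 against 10.28 and 10.27 on the other inhibitor arrays, with controls at 10.32, 10.26 and 10.30.

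**Figure D3:**
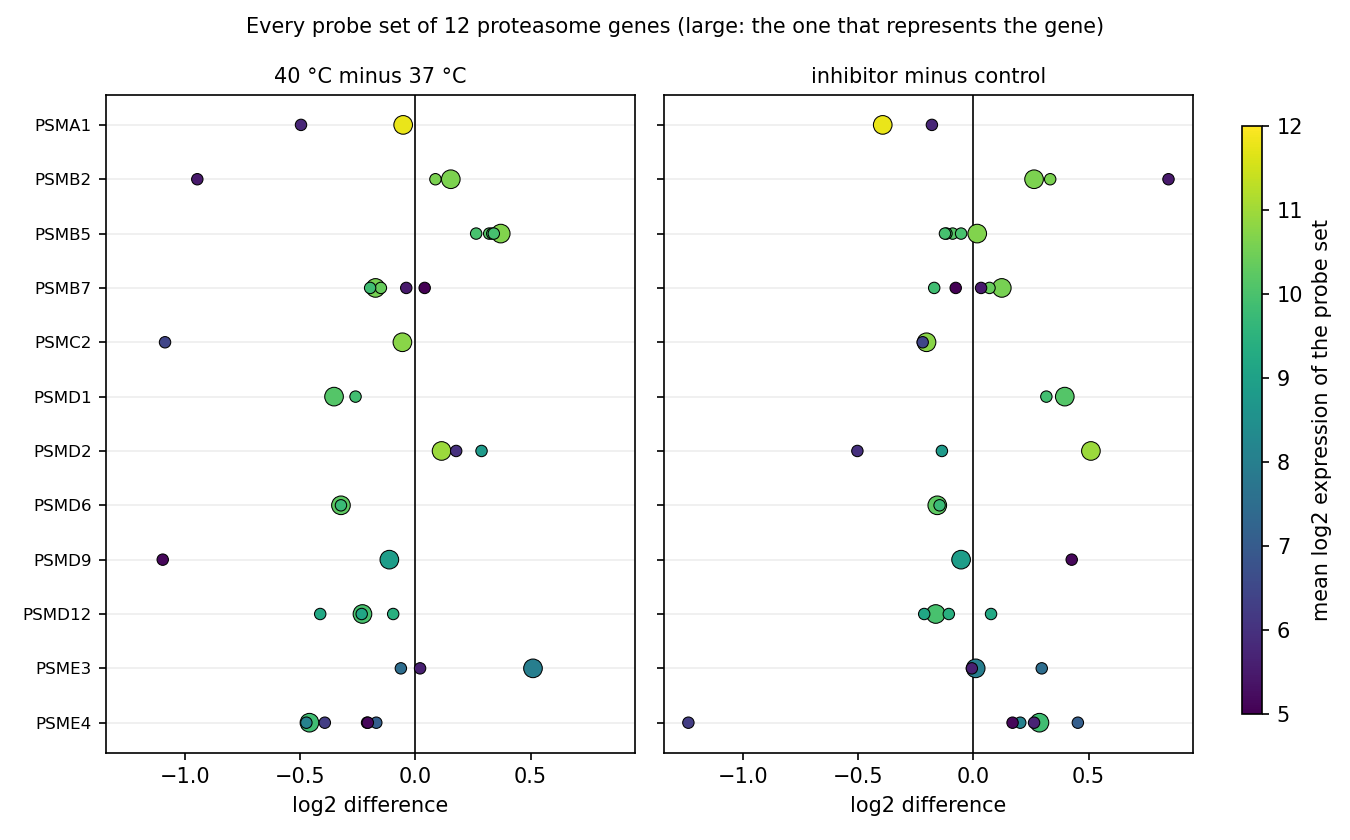
Log2 difference of every tested probe set of 12 proteasome genes, chosen after their values were seen, at 40 °C minus 37 °C (left) and inhibitor minus control (right); large points are the probe sets that represent the gene, and colour gives the mean log2 expression. The 5 probe sets of PSMB5 lie together at 0.26 to 0.37 at 40 °C, whereas faint probe sets of PSMB2, PSMC2, PSMD9 and PSME4 lie apart from the brighter ones.

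Across all 99 probe sets of the members, 94 passed the signal filter. At 40 °C 15 were called higher (16%, against 19.9% of all 31682 probe sets tested) and 28 lower (29.8%, against 17.6%), adjusted over all of them. With the inhibitor 18 were called higher (19.1%, against 21.3%) and 16 lower (17%, against 22%). Of the 41 members, 12 have a single probe set and 29 have several. A called member with a probe set called in the opposite direction was seen for 1 gene at 40 °C (PSMB2) and for 2 genes with the inhibitor (PSMD2 and PSME4).

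Whether a gene's inhibitor difference and its temperature difference differ from each other was tested in a fit of all 12 arrays, as inhibitor minus control less 40 °C minus 37 °C. In this test 18 of 39 members were called (46.2%, against 44.2% of all genes), 11 of them positive (28.2%, against 23.1%) and 7 negative (17.9%, against 21.1%). Of their 94 probe sets, 26 were called positive (27.7%, against 20.6% of all probe sets tested) and 19 negative (20.2%, against 23.2%). The experiments share no arrays, but their cells differ in nucleofection and sorting, which cannot be told apart from the treatment in this test. The 3′ minus 5′ differences of ACTB and GAPDH were also larger in the inhibitor experiment, and their part was not tested. The 3 smallest p-values were those of PSME4, PSMC3 and PSMD1, each lower at 40 °C and higher with the inhibitor. PSMC3 differed by 0.81 (SE 0.08, adjusted p = 9.52e-06), PSMD1 by 0.75 (SE 0.08, adjusted p = 1.11e-05) and PSME4 by 0.75 (SE 0.07, adjusted p = 8.5e-06). These 3 stayed called in each of 22 alternative fits, though PSMC3 has 1 probe set, whose values averaging could not change. The fit of every probe set read each of them from its brightest probe set alone. A faint probe set of PSME4 was called negative (−0.84, adjusted p = 0.046 over all probe sets), and its others were called positive (0.38 to 0.75).

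In all, 5 members were called in both comparisons with opposite signs, and the test of the difference called each of them. Besides the 3 just named, they were the ATPase gene PSMC4 (−0.45, adjusted p = 0.00167) and the base chaperone gene PSMD10 (−0.37, adjusted p = 0.000258), which were higher at 40 °C and lower with the inhibitor. Another 3 were called in both with the same sign, and the test of the difference called 0 of them (limma, also 0 at an unadjusted p under 0.05). These were PSMB2, higher in both, and PSMD14 and PSMG2, lower in both. PSMG2 fell by 0.35 in each, with a difference of 0.00 (95% interval −0.17 to 0.17). PSMB2 differed by 0.11 (95% interval −0.04 to 0.26) and PSMD14 by −0.10 (95% interval −0.25 to 0.05). The difference of PSMB2 was called after quantile normalization (0.15, adjusted p = 0.0303) and with its probe sets averaged (0.72, adjusted p = 0.000243), where its value at 40 °C was −0.24. That of PSMD14 was called with array weights (−0.16, adjusted p = 0.0332). How many of all genes show these patterns of calls, or those that follow, was not counted. The patterns are therefore not read as particular to proteasome genes.

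Of 9 members called at 40 °C but not with the inhibitor, the test of the difference called 5. These were PSMB5 (−0.35, adjusted p = 0.000671), PSME3 (−0.50, adjusted p = 0.00611), PSMB7 (0.30, adjusted p = 0.00635), PSMB1 (0.26, adjusted p = 0.00444) and PSMA3 (0.21, adjusted p = 0.03). The other 4 (PSMC1, PSMD6, PSMD12 and PSMG1) were not shown to differ between the comparisons. Of 10 members called with the inhibitor but not at 40 °C, the test called 6. PSMD4 differed by 0.52 (adjusted p = 4.68e-05), PSMD2 by 0.40 (adjusted p = 0.000296), PSMD3 by 0.35 (adjusted p = 0.00155), PSMA1 by −0.34 (adjusted p = 0.00264), PSMD11 by 0.26 (adjusted p = 0.0127) and PSMC6 by −0.21 (adjusted p = 0.033). PSMA2, PSMA4, PSMC2 and PSMF1 were not shown to differ. Averaging the probe sets of a gene turned the difference of PSMD2 (−0.24, adjusted p = 0.108) and ended the calls of PSMA1 (−0.012, adjusted p = 0.945), PSMD3 (0.19, 0.0585), PSMC6 (−0.042, 0.747), PSME3 (−0.056, 0.629) and PSMB7 (0.10, 0.316). The average of PSMC6 takes in a probe set below the signal filter. Both fainter probe sets of PSMD2 (−0.42 and −0.68) and a fainter probe set of PSME3 (0.36) were called in the opposite direction in the test of the difference. With the spike covariate, limma called 0 members negative (6 at an unadjusted p under 0.05) and 3 positive, which were PSMC3, PSMD1 and PSME4. Of 12 members called in neither comparison, PSME1 (0.22, adjusted p = 0.0347) and PSMG4 (−0.41, adjusted p = 0.0266) were called in the difference, and averaging ended both calls (0.14, adjusted p = 0.0671, and −0.039, adjusted p = 0.663). Leaving out 1 array ended the calls of PSMA3 (control 1 or 3, inhibitor 2, 37 °C 1 or 2, 40 °C 1 or 2; adjusted p = 0.0507 to 0.0728) and PSMC6 (control 1, inhibitor 1, any at 37 °C or 40 °C; 0.0548 to 0.0755). The same held for PSME1 (any control, inhibitor 2, 37 °C 2 or 3, 40 °C 2 or 3; 0.0532 to 0.087) and PSMG4 (replicate 1 or 3 of any group; 0.0515 to 0.0669).

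**Figure D4:**
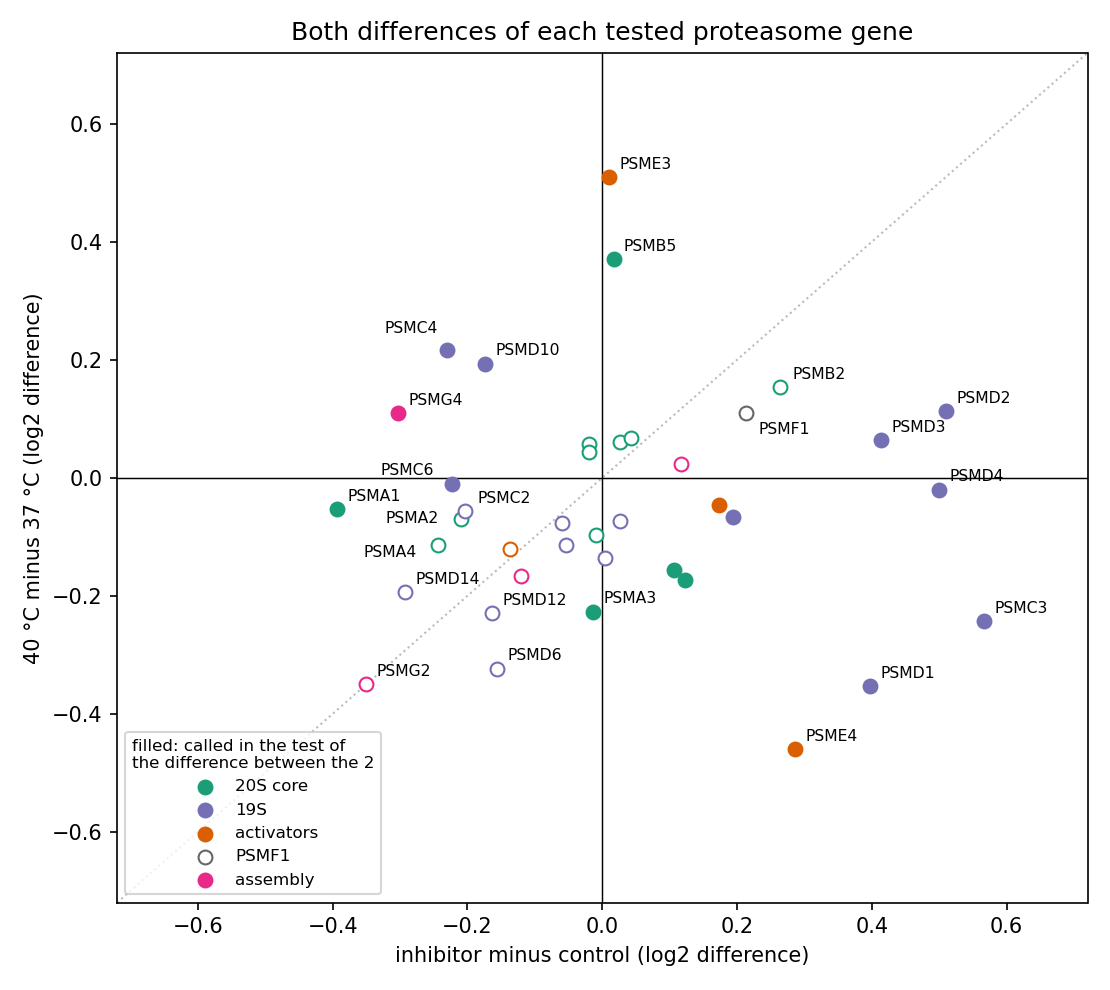
Log2 difference at 40 °C minus 37 °C (vertical axis) against inhibitor minus control (horizontal axis) for the 39 tested proteasome genes, coloured by class; filled points were called in the test of the difference between the 2, and the dotted line marks equal differences. PSMC3, PSMD1 and PSME4 lie at the lower right and PSMC4 and PSMD10 at the upper left, while PSMG2 lies on the line of equal differences.

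Members with and without the TGACNNNGC letters in their promoter windows were both mixed in direction. At 40 °C, 1 was higher and 5 lower of 13 tested genes with a match (median −0.11), and 4 were higher and 5 lower of 20 without (median −0.06). With the inhibitor, 3 were higher and 3 lower of 13 with a match (median −0.06), and 5 higher and 6 lower of 20 without (median −0.0033). Of the windows shown whole, PSME4 has a match and PSMC3 has none, and both genes fell at 40 °C and rose with the inhibitor.

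The genes that work around the proteasome were looked at in lists chosen for their role. NFE2L1 itself, the factor that drives proteasome genes, rose by 0.18 at 40 °C (adjusted p = 0.0109) and differed by −0.0033 with the inhibitor (adjusted p = 0.97). Among 13 measured genes of the NFE2L1 pathway, 4 rose (30.8%, against 21.6% of all genes) and 2 fell (15.4%, against 17.7%) at 40 °C. With the inhibitor 6 rose (46.2%, against 25.7%) and 3 fell (23.1%, against 19.6%). NPLOC4, a cofactor of the segregase VCP, fell by 0.23 at 40 °C and rose by 0.65 with the inhibitor. DDI2, the protease that activates NFE2L1, fell by 0.50 with the inhibitor, where the VCP cofactor UFD1 rose by 0.42 and the ligase gene BTRC by 0.48. The small Maf gene MAFF and the ligase gene SYVN1 rose at 40 °C by 0.42 and 0.23.

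Of 13 measured proteasome-associated genes, 3 rose (23.1%, against 21.6% of all genes) and 4 fell (30.8%, against 17.7%) at 40 °C. With the inhibitor 3 rose and 3 fell (23.1% each, against 25.7% and 19.6%), so the shares of rises were near those of all genes. POMP, the chaperone that matures the beta ring, fell by 0.17 at 40 °C (adjusted p = 0.0208) and differed by −0.09 with the inhibitor, where it was not called. UBLCP1, a phosphatase of the proteasome, fell by 0.70 at 40 °C, and the 19S deubiquitinase UCHL5 by 0.42. AKIRIN2, which carries proteasomes into the nucleus, rose by 0.38, and the heat-inducible ZFAND2A fell by 0.22. With the inhibitor, the 19S ubiquitin receptor ADRM1 rose by 0.41, the ATPase chaperone PAAF1 by 0.58 and the ligase gene UBE3C by 0.37, while TXNL1 fell by 0.27.

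Of 9 measured genes for ubiquitin, its activation and its shuttles, 3 rose at 40 °C (33.3%, against 21.6% of all genes). With the inhibitor 3 rose (33.3%, against 25.7%) and 2 fell (22.2%, against 19.6%). The shuttle genes UBQLN4 and UBQLN2 rose by 0.49 and 0.45 at 40 °C, and the activating enzyme UBA1 by 0.23. With the inhibitor UBA1 rose by 0.56, UBQLN4 by 0.45 and the chaperone BAG6 by 0.39, and UBA6 fell by 0.31. Of the inducible catalytic subunits left out of the members, PSMB9 rose by 0.26 and PSMB10 fell by 0.38 at 40 °C, and PSMB8 differed by 0.10 (adjusted p = 0.0854). With the inhibitor PSMB9 fell by 0.78 and PSMB8 by 0.39, and PSMB10 differed by −0.01 (adjusted p = 0.892).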

How the data were processed

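Per the labels' protocols, Trizol RNA of THP-1 cells was labelled with biotin and put on 12 PrimeView arrays. The deposited values are on the log2 scale, as read from the values themselves, for 49395 probe sets. How the authors corrected, normalized and summarised these log2 values is not given in the sources used here. Of the probe sets, 44988 that are not controls have 1 gene symbol in the platform's gene table and 1832 have several.

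Differences were tested in R 4.3.3 by limma 3.58.1 (lmFit, then eBayes), each comparison on its own 6 arrays, since handling differed between the experiments. The residual degrees of freedom were 4, and 8 for the test of the difference, which used all 12 arrays. Genes were tested where their mean reached the 30th percentile of probe sets that are not controls. Precision is limited by having 3 arrays per group. No array holds the same values as another. The replicate numbers do not pair the arrays. The tests were tried on simulated data first. Folds are linear ratios from differences of mean log2 values.

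The members, lists and the rule for giving values per array were chosen with earlier results of these data known. Per-array values are given for up to 3 called members of each class by p, the 3 largest called changes in each direction, the catalytic genes and the 3 smallest p-values of the difference test. Of the other lists, up to 4 called genes by p are named, plus NFE2L1, POMP and PSMB8 to PSMB10. Promoter sequences are RefSeq's. Some proteasome genes are not analysed here. Python 3.11.15 and matplotlib 3.10.9 were used for figures.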

Additional observations from a re-analysis of the deposited data

How the results depend on the processing

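Alternatives were the replicate block, a joint fit of all 12 arrays, a filter at the 50th percentile or none, averaging the probe sets of a gene, testing every probe set, quantile normalization, median centring, trend and robust eBayes, array weights, a poly-A spike covariate and leaving out each array. A sign change of a gene called in neither fit was not counted as a reversal. In the fit of every probe set, whether a member kept its call was read from the probe set that represents it alone. Counts below are given as higher and lower, first for all genes and then for members.

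Averaging probe sets turned PSMB2 at 40 °C (−0.24), PSMD2 (−0.043) and PSMD9 (0.19) with the inhibitor, and PSMC2 (0.30) and PSMD2 (−0.24) in the difference. Every probe set gave 6302 and 5583 (members 15 and 28) at 40 °C, 6752 and 6965 (18 and 16) with the inhibitor, and 6522 and 7364 (26 and 19) in the difference. The spike covariate gave 1220 and 1453 (2 and 6), 52 and 184 (0 and 0), and 873 and 1073 (3 and 0). Every probe set tests more features, and for the covariate the cause was not tested. Of the calls of members, 8 of 17 at 40 °C, 0 of 18 with the inhibitor and 3 of 18 in the difference kept direction and call under every alternative, and a further 3, 7 and 5 were lost under the spike covariate alone. Averaging could not change the values of the 12 members with a single probe set. The averages took in probe sets below the signal filter, which PSMC2, PSMC6 and PSMG4 have.

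Members lower with the inhibitor were 3 under the replicate block, 4 after median centring and 14 with array weights, where 5527 genes were higher; the cause was not tested. The same-numbered arrays do not deviate together (correlations of −0.133, −0.102 and 0.227 for 40 °C and 37 °C, and −0.187, −0.604 and −0.154 for inhibitor and control). The replicate block gave 4 and 10 members at 40 °C, 6 and 3 with the inhibitor and 8 and 5 in the difference. Leaving out 1 array gave 2443 to 2779 genes higher and 2037 to 2406 lower at 40 °C, with 3 to 5 members higher (3 without replicate 1 at 37 °C) and 9 to 11 lower. With the inhibitor it gave 2805 to 4025 and 2207 to 2935 genes, with 7 to 9 members higher and 4 to 11 lower (4 without control 1 or 3, or inhibitor 1 or 3). In the difference it gave 2845 to 3551 and 2678 to 3191 genes, with 9 to 12 members higher and 5 to 7 lower. Several faint probe sets disagree with the brighter ones of the same gene, and the reason was not tested.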
